A study of Mus musculus with 15 samples.

Results

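Macrophages take up different programmes according to the signals around them, and a small set of genes is commonly read as a marker of each. In alternative activation, interleukin-4 or interleukin-13 binds a receptor that contains the interleukin-4 receptor alpha chain, the transcription factor STAT6 is switched on, and genes such as Arg1, Chil3 (also called Ym1), Retnla (also called Fizz1) and the lectins Mgl2 and Clec10a follow in mouse macrophages. In classical activation, interferon gamma and bacterial products switch on Nos2, the inducible nitric oxide synthase, and cytokines such as Il6. Il10 encodes an anti-inflammatory cytokine, and Pparg encodes a lipid-sensing nuclear receptor that takes part in alternative activation and in how macrophages handle lipid. Foam cells are macrophages of atherosclerotic plaques that have filled with lipid.

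These 10 activation markers, Arg1, Chil3, Retnla, Mgl2, Clec10a, Il4ra, Pparg, Nos2, Il10 and Il6, were followed among 18193 genes measured in foam cells. The members were chosen by symbol, from probe sets annotated to exactly 1 gene, and 12 probe sets matched. Each gene was represented by its probe set with the highest mean. A further probe set annotated to both Chil3 and Chil4 was left out by that rule.

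All mice were C57BL/6 animals lacking apolipoprotein E (ApoE-/-), controls included, and no group with an intact gene was part of the comparison. The CHOW group ate regular chow until week 22, the 2w-WD group received a western-type diet for 2 weeks, and the 14w-WD group received it for 14 weeks, starting at week 8 and ending at week 22. The age of the 2w-WD mice is uncertain, because their sample labels state 20 weeks on chow before the switch, whereas the series text has the switch at week 22 and the end at week 24. Foam cells were cut by laser from sections of the aortic sinus, their RNA was amplified and labelled with biotin (15 µg of amplified RNA per sample), and each of the 15 samples, 5 per group, was hybridised to an Affymetrix mouse array of the whole genome. The labels do not tie arrays to single animals, so the p-values refer to the spread among these samples and part of it may be technical. The comparisons ask what a short and a long period of western diet do to foam cell RNA.

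Values are the deposited intensities on a linear scale, and tests used log2(intensity + 16), on which the change of a dim gene is understated. An array has no counting depth, and the number of arrays limits the precision. Genes whose mean level lay below log2 5.66, an intensity of 34.6, were tested in a second fit of all 18193 genes with no filter. Of the macrophage markers, Adgre1, the gene of F4/80, ranged from 5805 to 8615 over the 15 arrays, and 11 or 12 of 12 markers lay above the level on every array. Heart muscle transcripts were also present: their summed intensity was 2355 on CHOW replicate 4, 44206 to 82988 on the other CHOW arrays, 61100 to 122938 in 2w-WD and 29165 to 92962 in 14w-WD. CHOW replicate 4 therefore stood apart, and the leading results that rest on CHOW are also given without it. Cd68, a lysosomal macrophage marker, differed from CHOW by -0.76 in 2w-WD (adjusted p = 0.507) and -0.07 in 14w-WD (adjusted p = 0.925). Of the 11 macrophage markers tested, 1 lay above 0 in 2w-WD against CHOW (median -0.18) and 8 in 14w-WD against CHOW (median 0.07). Against CHOW, the 13 heart muscle markers had a median log2 difference of 1.53 in 2w-WD, with 12 above 0, and of 0.88 in 14w-WD, with 11 above 0, and 0 were called in either. The medians over all tested genes were -0.10 and 0.16. Myh6, a heart muscle myosin, differed by 1.13 (adjusted p = 0.536) and 0.77 (adjusted p = 0.533). In 14w-WD against 2w-WD, 10 of the 11 macrophage markers lay above 0, with a median of 0.32 and 1 called. Of the 13 heart muscle markers, 1 did, with a median of -0.65 and 0 called. The median over all tested genes was 0.23 in that comparison. In captured tissue, fewer cells of a type and less RNA per cell cannot be told apart.

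The markers fell into 3 kinds by their brightness. Il4ra and Il10 lay above the level on all 15 arrays. Chil3, Clec10a, Pparg and Retnla lay above it on average but not on every array, and Retnla lay above it on no CHOW array, 2 arrays of 2w-WD and 4 of 14w-WD. Arg1, Il6, Mgl2 and Nos2 lay below it on average, and Nos2 on every array. Retnla thus passed the filter only through its bright arrays in the western diet groups.

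**Figure D1:**
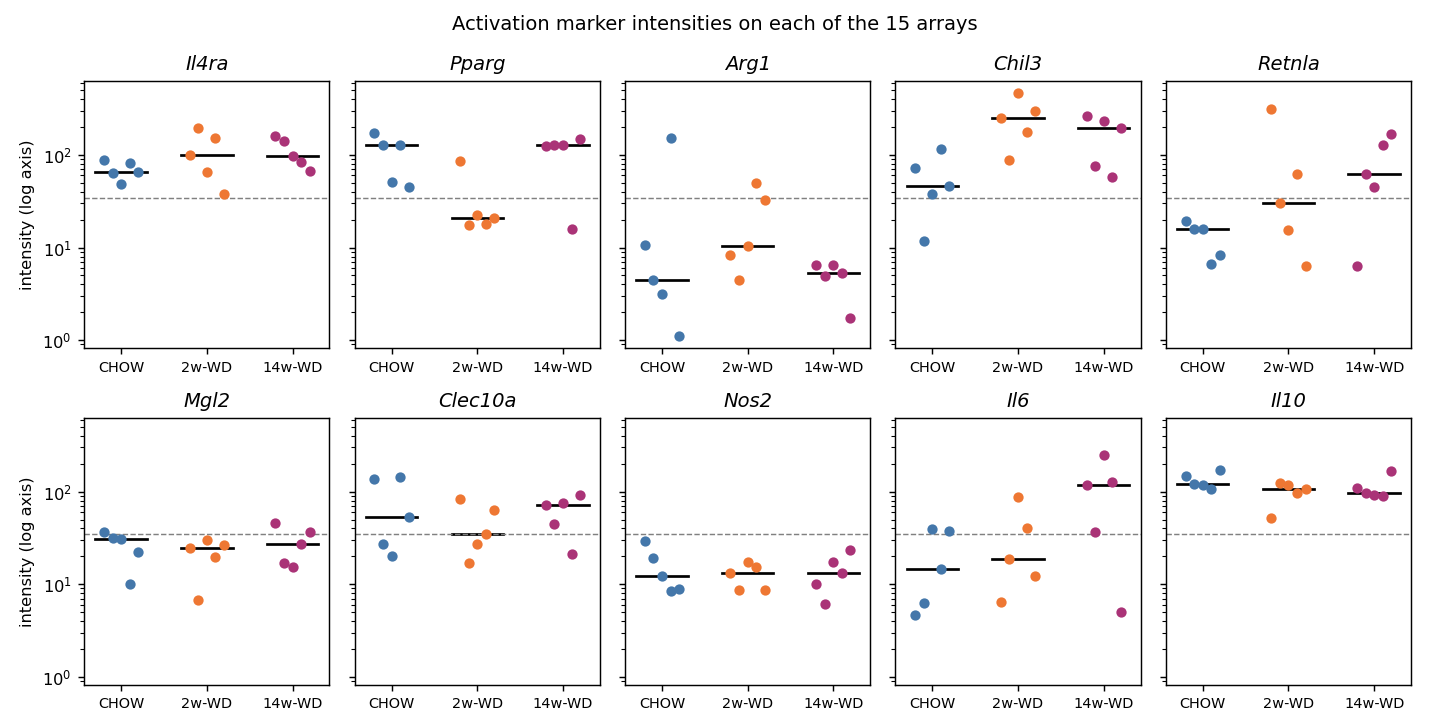
Intensity (log axis) of each of the 10 activation markers, by diet group. Each point is 1 array, the bars are group medians, and the dashed line is the filter level at an intensity of 34.6. Chil3 is higher on most western diet arrays than on most chow arrays, 4 of 5 2w-WD arrays are low in Pparg, and Nos2 lies under the line throughout.

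Il4ra, the receptor chain through which interleukin-4 and interleukin-13 act, was measured at similar brightness in all groups. Its intensity in CHOW was 87.9, 63.4, 48.2, 82.8 and 66.1 on replicates 1 to 5, in 2w-WD 99.3, 197.5, 65.3, 152.8 and 37.7, and in 14w-WD 158.7, 142.0, 98.3, 84.2 and 67.8. The western diet groups spread more widely than CHOW and overlapped it, with 3 of 5 arrays of each above the highest chow array. Mean log2 levels were 6.40 ± 0.28 (SD, n = 5) for CHOW, 6.82 ± 0.80 for 2w-WD and 6.92 ± 0.45 for 14w-WD. Neither western diet group passed the gene test against CHOW. The log2 difference was 0.42 in 2w-WD (SE 0.33, 95% interval -0.27 to 1.11, adjusted p = 0.656) and 0.52 in 14w-WD (SE 0.33, 95% interval -0.17 to 1.21, adjusted p = 0.436). Of the other probe sets of Il4ra, 1 had group means of 6.10, 6.11 and 6.54, and the other read between 1.00 and 3.11 on every array, so that it held no measurable signal.

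Pparg, the lipid-sensing nuclear receptor, was the member that set 2w-WD apart from both other groups in its raw values. Its intensity was 173.4, 128.0, 51.1, 128.4 and 45.6 in CHOW, 85.2, 17.7, 22.5, 17.9 and 20.9 in 2w-WD, and 124.6, 127.5, 127.5, 15.9 and 147.0 in 14w-WD. On 4 of 5 2w-WD arrays the gene lay below every chow array, while 2w-WD replicate 1 and 14w-WD replicate 4 went against their groups and made the groups overlap. Pparg averaged a log2 level of 6.78 ± 0.73 (SD, n = 5) for CHOW, 5.46 ± 0.68 for 2w-WD and 6.76 ± 0.99 for 14w-WD. In 2w-WD it was lower than in CHOW by a log2 difference of -1.33 (SE 0.45, 95% interval -2.28 to -0.38, adjusted p = 0.480, exact permutation p = 0.0238), which did not pass. Against 2w-WD, the 14w-WD mean was higher by 1.30 (SE 0.45, 95% interval 0.36 to 2.25, adjusted p = 0.0662, exact permutation p = 0.0476), which missed the threshold of 0.05 as well. The 14w-WD and CHOW means differed by -0.02 (95% interval -0.97 to 0.93). Without CHOW replicate 4 the difference between 2w-WD and CHOW was -1.23 (adjusted p = 0.665).

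The difference between the western diet groups moved with single arrays and with array brightness. When 14w-WD replicate 4 was left out the log2 difference became 1.75 (adjusted p = 0.0126). Leaving out 2w-WD replicate 1 gave 1.61 (adjusted p = 0.0140), so in both cases it passed. Array brightness, taken as the percentage of probe sets over an intensity of 100, was 25.7% on 2w-WD replicate 1 and 18.2% to 20.4% on the other 2w-WD arrays. It was 22.5% on 14w-WD replicate 4 and 24.1% to 27.2% on the other 14w-WD arrays. In CHOW it was 24.7% on replicate 1 and 22.3% on replicate 4. On CHOW replicates 2, 3 and 5 it was 20.4% to 20.6%, and Pparg read 128.0, 51.1 and 45.6 there. Only 2w-WD replicate 1 among the 2w-WD arrays reached the 14w-WD range, so this percentage and diet group are confounded between those 2 groups. With that percentage as a covariate, an alternative added after seeing the data, the difference between 14w-WD and 2w-WD was 0.20 (adjusted p = 0.931), that between 2w-WD and CHOW was -1.10 (adjusted p = 0.328), and that between 14w-WD and CHOW was -0.90 (SE 0.37, adjusted p = 0.745). With array weights, 14w-WD exceeded 2w-WD by 1.68 in Pparg and passed (adjusted p = 0.00518). Adipocytes also express Pparg, and 2w-WD replicate 1 held the highest adipocyte marker level of all arrays (mean log2 10.61). The next highest were 2w-WD replicate 4 (9.93), where Pparg read 17.9, and 14w-WD replicate 5 (9.59), where it read 147.0. On CHOW replicate 4 the adipocyte level was 6.91 and Pparg read 128.4. The part of array brightness or of adipocyte RNA in the Pparg level was not tested further.

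Arg1, which encodes the arginase that competes with nitric oxide synthase for arginine, was dim. Its intensity was 10.7, 4.4, 3.2, 151.0 and 1.1 in CHOW, 8.3, 4.5, 10.5, 49.6 and 32.4 in 2w-WD, and 6.5, 4.9, 6.4, 5.4 and 1.7 in 14w-WD. Only CHOW replicate 4 and 2w-WD replicate 4 lay above the level of 34.6, and no 14w-WD array came near it. Mean log2 levels of CHOW, 2w-WD and 14w-WD were 4.97 ± 1.37 (SD, n = 5), 5.06 ± 0.72 and 4.39 ± 0.14. In the fit with no filter the 14w-WD mean differed from CHOW by -0.58 (SE 0.48, 95% interval -1.60 to 0.44, adjusted p = 0.603), and without CHOW replicate 4 by 0.02. It differed from 2w-WD by -0.68 (SE 0.48, adjusted p = 0.391, exact permutation p = 0.0476).

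Chil3, which encodes a secreted chitinase-like protein, showed the largest mean difference from CHOW among the 10 markers in 2w-WD. Its intensity was 72.2, 11.8, 37.5, 116.5 and 46.6 in CHOW, 248.3, 87.3, 464.2, 174.8 and 300.7 in 2w-WD, and 264.7, 75.4, 233.5, 57.1 and 195.9 in 14w-WD. On 4 of 5 2w-WD arrays and 3 of 5 14w-WD arrays it lay above the highest chow array, and the groups overlapped through the brightest chow and the dimmest western diet arrays. Chil3 averaged a log2 level of 6.00 ± 0.84 (SD, n = 5) for CHOW, 7.91 ± 0.83 for 2w-WD and 7.31 ± 0.89 for 14w-WD. The 2w-WD mean was higher than CHOW by 1.90 (SE 0.48, 95% interval 0.89 to 2.91), with an unadjusted p of 0.000999 and an exact permutation p of 0.0159, but an adjusted p of 0.480 over 11925 genes. The 14w-WD mean was higher than CHOW by 1.30 (SE 0.48, 95% interval 0.29 to 2.31, adjusted p = 0.219, exact permutation p = 0.0556). The 14w-WD and 2w-WD means differed by -0.60 (95% interval -1.61 to 0.41, adjusted p = 0.393). Both comparisons with CHOW share the same 5 chow arrays. Without CHOW replicate 4, which held the highest chow value, the differences were 2.16 (adjusted p = 0.665) and 1.56 (adjusted p = 0.151). With array brightness as a covariate they were 2.04 (adjusted p = 0.189) and 0.79 (SE 0.53, adjusted p = 0.924), and the 14w-WD mean differed from 2w-WD by -1.25 (adjusted p = 0.614). With array weights the 14w-WD difference from CHOW was 1.61 and passed (adjusted p = 0.0212).

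Chil3 is also made by neutrophils, so their markers were set beside it. S100a8 read 13858 and 14170 on 2w-WD replicates 3 and 5, the arrays with the highest Chil3, against 1559 to 7232 on all other arrays. The mean log2 level of the 7 named neutrophil markers out of 8 listed ran from 6.46 to 7.03 in CHOW, 6.35 to 7.90 in 2w-WD and 6.40 to 7.14 in 14w-WD, and their summed intensity from 3270 to 6171, 2910 to 16135 and 1928 to 7897. Of the granule genes on that list, Ngp read 246.7 to 601.7 in CHOW, 235.5 to 514.0 in 2w-WD and 161.4 to 429.5 in 14w-WD, while Camp, Ltf, Mpo and Elane lay between 1.72 and 55.4 over all arrays. S100a9, the partner of S100a8, read 20.1 to 114.1 in CHOW, 9.94 to 1329 in 2w-WD and 5.47 to 160.1 in 14w-WD. On other arrays the neutrophil level and Chil3 went apart. Replicate 1 of 2w-WD, with a Chil3 of 248.3, had the lowest neutrophil mean of all arrays (6.35). Replicate 1 of 14w-WD, with a Chil3 of 264.7, had a mean of 6.50. Replicate 4 of 14w-WD had the highest neutrophil mean of its group (7.14) and the lowest Chil3 of that group (57.1). The part of neutrophil RNA in the Chil3 signal was not tested.

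Retnla, which encodes a secreted resistin-like protein, was dim in CHOW and uneven under the western diet. Its intensity was 19.3, 15.7, 15.8, 6.6 and 8.2 in CHOW, 316.3, 30.1, 15.6, 62.2 and 6.3 in 2w-WD, and 6.3, 61.6, 45.6, 127.5 and 166.9 in 14w-WD. Every chow array lay under the filter level, and 4 of 5 14w-WD arrays lay above every chow array, but replicate 1 of 14w-WD and replicate 5 of 2w-WD were as dim as the dimmest chow array. Retnla averaged 4.84 ± 0.28 (SD, n = 5), 5.93 ± 1.52 and 6.28 ± 1.19 on the log2 scale. The 14w-WD mean was higher than CHOW by 1.43 (SE 0.61, 95% interval 0.15 to 2.72, adjusted p = 0.271, exact permutation p = 0.0476), and the 2w-WD mean by 1.09 (SE 0.61, 95% interval -0.20 to 2.37, adjusted p = 0.549). Neither passed. As Retnla passed the filter only through western diet arrays, the fit with no filter stands beside these values, with an adjusted p of 0.300 for 14w-WD and 0.612 for 2w-WD. The 2w-WD difference was 0.48 without 2w-WD replicate 1 (adjusted p = 0.678), 0.55 with the heart muscle level as a covariate (adjusted p = 0.775) and 0.50 with array weights (adjusted p = 0.817). Without CHOW replicate 4 the 14w-WD difference was 1.35 (adjusted p = 0.345).

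Adipose tissue is a known source of Retnla in mice, and 2 of the adipocyte transcripts, Adipoq and Cidec, were high with it on some arrays. Adipoq, the adiponectin gene, read 957 and Cidec, a lipid droplet protein gene, read 2771 on 2w-WD replicate 1, the array with the most Retnla. On 14w-WD replicate 5, the next highest, they read 287 and 1050. The mean log2 level of the 5 named adipocyte markers out of 7 listed ran from 6.91 to 8.79 in CHOW, 6.75 to 10.61 in 2w-WD and 7.32 to 9.59 in 14w-WD, and their summed intensity from 4414 to 9111, 5410 to 21779 and 6002 to 11162. Retnla read 127.5 on 14w-WD replicate 4 where Adipoq read 50.7, and 8.2 on CHOW replicate 5 where Adipoq read 79.5. The part of adipocyte RNA in the Retnla signal was not tested.

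**Figure D2:**
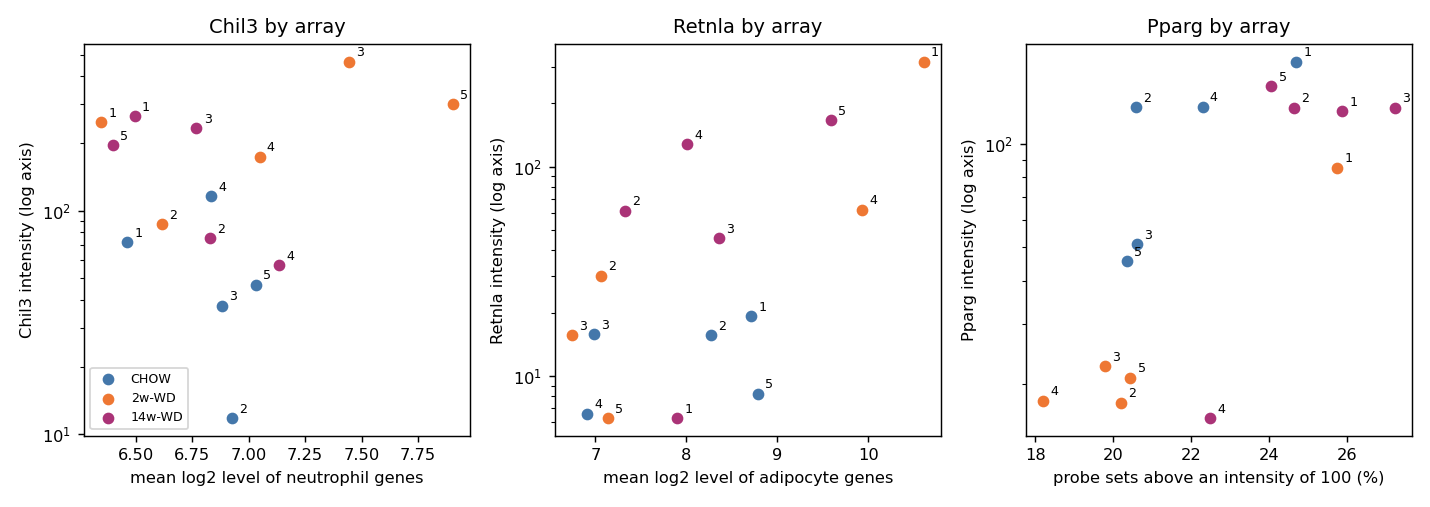
Left, Chil3 intensity (log axis) against the mean log2 level of neutrophil markers. Middle, Retnla intensity (log axis) against the mean log2 level of adipocyte markers. Right, Pparg intensity (log axis) against the percentage of probe sets above an intensity of 100. Each point is 1 array, coloured by diet group and numbered by replicate. The highest Chil3 value, 464.2, and the highest Retnla value, 316.3, lie on 2w-WD arrays with high neutrophil or adipocyte markers. On 2w-WD replicate 1 Chil3 reads 248.3 at the lowest neutrophil level (6.35). The low Pparg arrays of 2w-WD have shares of 18.2% to 20.4%. CHOW replicates 2, 3 and 5 have shares of 20.4% to 20.6% and read 128.0, 51.1 and 45.6 in Pparg.

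The promoters of both secreted markers are shown because STAT6, the factor downstream of the interleukin-4 receptor, binds paired TTC and GAA half-sites. They are RefSeq sequences of build GRCm38.p6 from 250 bases before to 50 bases after the annotated start, and capitals mark TTC and GAA half-sites 3 or 4 bases apart and the TATAAA box. Positions count the annotated start as 0. The Retnla promoter lies at chr16:48842359-48842658 on the plus strand and the Chil3 promoter at chr3:106167515-106167814 on the minus strand.
Retnla: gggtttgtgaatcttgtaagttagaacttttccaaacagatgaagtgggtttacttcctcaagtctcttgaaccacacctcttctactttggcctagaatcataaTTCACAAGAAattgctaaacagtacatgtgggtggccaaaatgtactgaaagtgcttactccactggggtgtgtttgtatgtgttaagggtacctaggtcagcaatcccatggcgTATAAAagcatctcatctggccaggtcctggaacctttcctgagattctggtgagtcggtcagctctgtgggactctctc
Chil3: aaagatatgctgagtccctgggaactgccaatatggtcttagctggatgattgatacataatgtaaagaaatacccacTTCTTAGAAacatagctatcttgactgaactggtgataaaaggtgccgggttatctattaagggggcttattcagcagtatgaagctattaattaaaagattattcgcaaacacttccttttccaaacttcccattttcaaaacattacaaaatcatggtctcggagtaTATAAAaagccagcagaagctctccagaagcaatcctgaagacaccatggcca
The Retnla window held the spacing of 4 bases (TTCNNNNGAA) at positions -145 to -136, which occurs in 6.95% of 32851 promoters. The Chil3 window held the spacing of 3 bases (TTCNNNGAA) at positions -172 to -164, which occurs in 8.30%. TATAAA, searched on both strands, occurs in 13.6% of promoters and lay at -30 to -25 in Retnla and across the annotated start in Chil3. A match of letters shows no binding. Of the 10 markers, 6 had a promoter in the sequence table, with 8 promoters in all, and the half-sites were found only in these 2 windows among the 8.

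Mgl2 and Clec10a, neighbouring C-type lectin genes whose proteins bind galactose-type sugars, gave no difference past the test. Mgl2 was dim, at 36.4, 31.4, 31.2, 9.95 and 22.2 in CHOW, 24.3, 6.7, 30.3, 19.7 and 26.8 in 2w-WD, and 46.3, 17.0, 15.2, 27.3 and 37.0 in 14w-WD. Its ranges overlapped nearly in full, and the 95% interval of the log2 difference from CHOW was -0.69 to 0.35 in 2w-WD and -0.45 to 0.59 in 14w-WD. Clec10a read 138.4, 27.4, 20.4, 143.5 and 52.8 in CHOW, 82.5, 17.1, 26.9, 35.3 and 63.6 in 2w-WD, and 72.5, 44.8, 74.6, 21.3 and 92.6 in 14w-WD. The highest values were those of CHOW replicates 1 and 4, and every group held dim arrays. Dendritic cells also express both lectins, and the mean log2 level of the 7 named dendritic cell markers out of 8 listed ran from 6.15 to 6.54 in CHOW, 6.02 to 6.62 for 2w-WD and 6.16 to 6.44 for 14w-WD. The part of their RNA in the lectin signals was not tested. The Clec10a log2 level was 6.26 ± 1.00 (SD, n = 5), 5.82 ± 0.64 and 6.18 ± 0.62, with differences from CHOW of -0.44 in 2w-WD (SE 0.43, adjusted p = 0.717) and -0.09 in 14w-WD (SE 0.43, adjusted p = 0.930).

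Among the classical markers, Nos2 gave no signal above the filter level on any array. It read 8.5 to 29.3 in CHOW with a median of 12.4, 8.7 to 17.2 in 2w-WD with a median of 13.2, and 6.2 to 23.4 in 14w-WD with a median of 13.4. At this brightness the fit with no filter gave log2 differences from CHOW of -0.11 (95% interval -0.52 to 0.30) in 2w-WD and -0.06 (95% interval -0.48 to 0.35) in 14w-WD.

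Il6, the gene of an inflammatory cytokine, was bright on part of the 14w-WD arrays. It read 4.6, 6.3, 39.0, 14.6 and 37.6 in CHOW, 6.4, 18.7, 86.8, 40.4 and 12.3 in 2w-WD, and 117.8, 36.4, 247.0, 126.6 and 5.0 in 14w-WD. Replicates 1, 3 and 4 of 14w-WD lay above every array of the other groups, whereas replicate 5 of 14w-WD was among the dimmest of all. Mean log2 levels were 5.06 ± 0.68 (SD, n = 5), 5.38 ± 0.88 and 6.47 ± 1.43. In the fit with no filter the 14w-WD mean was higher than CHOW by 1.41 (SE 0.56, 95% interval 0.22 to 2.60, adjusted p = 0.278, exact permutation p = 0.119) and higher than 2w-WD by 1.09 (SE 0.56, 95% interval -0.10 to 2.28, adjusted p = 0.231). Neither passed.

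The Il6 promoter is shown because the NF-kB factors that classical stimuli switch on bind a GGGANTTTCC motif. It lies at chr5:30012864-30013163 on the plus strand (RefSeq, GRCm38.p6), and capitals mark that motif.
Il6: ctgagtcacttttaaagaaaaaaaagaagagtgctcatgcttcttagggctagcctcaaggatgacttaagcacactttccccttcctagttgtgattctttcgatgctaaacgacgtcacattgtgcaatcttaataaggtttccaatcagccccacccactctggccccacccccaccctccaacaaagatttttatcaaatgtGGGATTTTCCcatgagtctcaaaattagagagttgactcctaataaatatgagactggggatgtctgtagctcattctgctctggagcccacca
The motif lay at positions -44 to -35 and occurs, with both strands searched, in 0.411% of the 32851 promoters. That share holds for this pattern of letters only, and a match shows no binding.

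Il10 was measured above the filter level on all arrays and its group means lay close together. It read 148.1, 119.8, 119.1, 107.0 and 169.2 in CHOW, 52.0, 122.4, 117.0, 97.1 and 107.1 in 2w-WD, and 109.8, 95.5, 91.1, 90.0 and 168.5 in 14w-WD. The groups overlapped, and the lowest value was that of 2w-WD replicate 1. On the log2 scale Il10 averaged 7.20 ± 0.24 (SD, n = 5), 6.80 ± 0.42 and 6.96 ± 0.34. Against CHOW it differed by -0.40 in 2w-WD (SE 0.24, 95% interval -0.90 to 0.11, adjusted p = 0.575) and -0.24 in 14w-WD (SE 0.24, 95% interval -0.75 to 0.26, adjusted p = 0.624).

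Over the 10 markers, limma called 0 in each of the 3 comparisons. For the 6 markers above the filter, with Retnla among them only through its western diet arrays, the share of all 11925 tested genes called was 0% in 2w-WD against CHOW, 0.00839% in 14w-WD against CHOW and 11.2% in 14w-WD against 2w-WD. For the 4 markers below it, the share of all 18193 genes was 0%, 0.0934% and 5.94%. At an unadjusted p under 0.05 in the fit with no filter, 2 markers (Chil3 and Pparg), 3 markers (Chil3, Retnla and Il6) and 1 marker (Pparg) stood out, while 8.59%, 14.2% and 25.9% of all genes did. In 2w-WD against CHOW that was 1563 of 18193 genes, or 1164 of the 11925 above the filter. The median log2 difference of the 10 markers was -0.01, 0.02 and 0.19, against -0.05, 0.09 and 0.11 over all genes. In each comparison with CHOW, 5 of the 10 markers had the higher mean under the western diet, beside 43.5% of all genes for 2w-WD and 60.8% for 14w-WD.

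**Figure D3:**
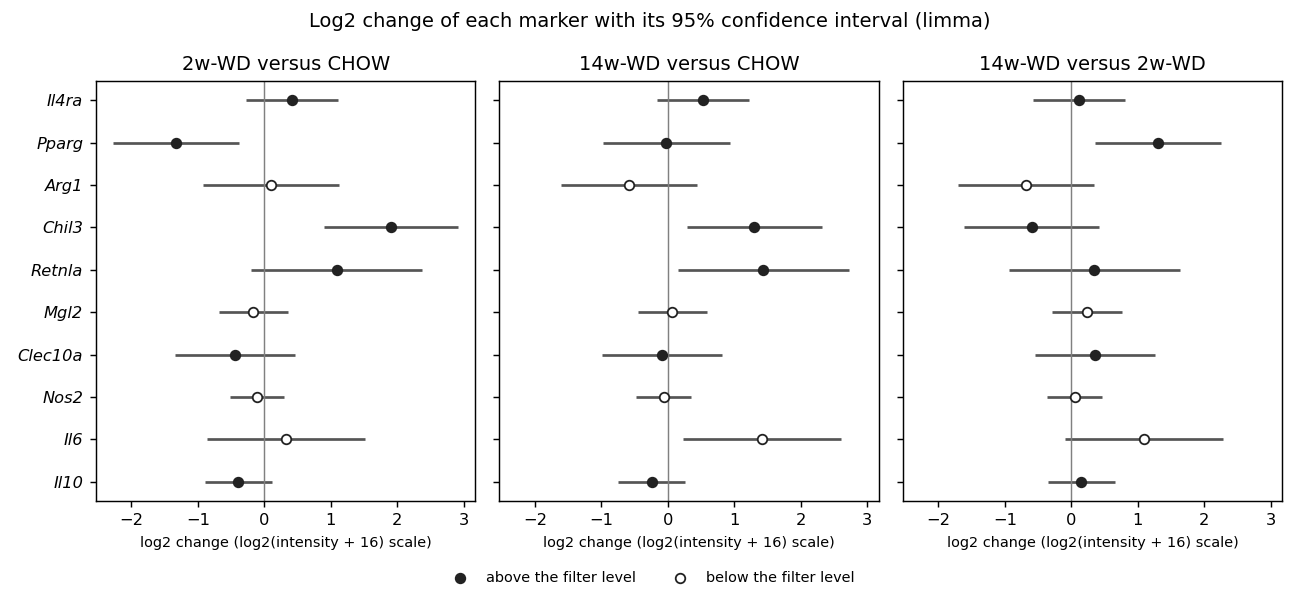
Log2 difference on the log2(intensity + 16) scale with its 95% confidence interval from limma, for each marker in each of the 3 comparisons. Filled points are genes above the filter level and open points genes below it. The interval of Chil3 in 2w-WD against CHOW runs from 0.89 to 2.91 and that of Pparg from -2.28 to -0.38, and 0 of the 30 differences passed at an adjusted p under 0.05.

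Across the 15 arrays, the members most alike were Clec10a and Pparg (Pearson r 0.68, Spearman rho 0.73). Among 11173 named genes tested, the 2 most alike in pattern were sought for each member above the filter. They were Mapk8ip2 (r 0.79) and Neurl3 (r 0.72) for Chil3. For Retnla, which lay above the filter level on only 6 of the 15 arrays, they were Tmod1 (r 0.90) and Efemp1 (r 0.89). Ints3 (r 0.88) and Npnt (r 0.87) were most like Clec10a, and Gli3 (r 0.85) and Gnb5 (r 0.84) most like Il4ra. Fam118a and Ift20 (both r 0.94) were most like Pparg, and Rabif (r 0.80) and Lin28a (r 0.79) most like Il10. By ranks, Lin28a was less like Il10 (Spearman rho 0.49), while rho lay from 0.77 to 0.94 for the other genes named. The 15 points of each pair share their arrays and thus the brightness and cell mixture of each capture, and these values are a description.

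The pathways around the markers were described by 7 lists of related genes. In both comparisons with CHOW, 0 of their 75 tested genes were called. Of the 75, 11 were called in 14w-WD against 2w-WD, all higher in 14w-WD, which is 14.7% beside 11.2% of all tested genes. These calls depend on the arrays used. Without 14w-WD replicate 1 or replicate 3, 1 of the 11 remained, and without 2w-WD replicate 2 or replicate 4, 2 remained. With array brightness as a covariate 0 remained, but brightness and diet group are confounded between these groups, so their parts cannot be told apart. All 11 differences were above 0 in each of these fits. As the 11 were picked as higher in 14w-WD on these same arrays, this is no support for their direction. The changes given for each list below are those of 14w-WD from 2w-WD unless CHOW is named.

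Of the interleukin-4 and interleukin-13 signalling list, 8 of 14 genes were tested and 1 was called. This was the receptor-associated kinase gene Tyk2 (log2 change 0.81, SE 0.23, adjusted p = 0.0365). Tyk2 averaged 5.45 in CHOW and 5.54 in 2w-WD, below the filter level, and 6.35 in 14w-WD. It thus passed the filter only through the group in which it was high. The median difference of the list was 0.63, against 0.23 over all tested genes. Stat6 itself was higher by 1.21 (SE 0.43, adjusted p = 0.0713), which did not pass. Stat6 averaged a log2 level of 8.30 on the CHOW arrays, between its means of 7.55 (2w-WD) and 8.76 (14w-WD). The cytokine genes lay below or about the filter level, with mean log2 levels of 5.73, 5.59 and 5.48 for Il4 and of 4.55, 4.74 and 4.38 for Il13 in CHOW, 2w-WD and 14w-WD.

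Of the partners and targets of PPAR gamma, 12 of 14 genes were tested and 3 were called, all higher in 14w-WD than in 2w-WD. These were Angptl4, an inhibitor of lipoprotein lipase (1.62, SE 0.47, adjusted p = 0.0382), Rxra, the receptor with which PPAR gamma pairs (0.96, SE 0.29, adjusted p = 0.0430), and Plin2, a lipid droplet coat protein (0.37, SE 0.12, adjusted p = 0.0494). Mean log2 levels in CHOW, 2w-WD and 14w-WD were 7.96, 7.02 and 8.64 for Angptl4 and 6.17, 6.00 and 6.96 for Rxra. For Plin2 they were 13.62, 13.36 and 13.73. The median difference of the list was 0.25. Of the other alternative activation genes, 12 of 18 were tested and 2 were called, with a median of 0.29. These were the folate receptor gene Folr2 (1.45, SE 0.33, adjusted p = 0.0178) and the fibronectin gene Fn1 (0.92, SE 0.21, adjusted p = 0.0196). Mean log2 levels in CHOW, 2w-WD and 14w-WD were 6.39, 6.18 and 7.62 for Folr2 and 13.35, 12.48 and 13.40 for Fn1. Fibroblasts also make fibronectin, and in the same comparison all 7 fibroblast markers lay above 0, with a median of 0.47 against 0.23 over all tested genes. Of these, Pdgfra (1.95, adjusted p = 0.0291) and Col1a1 (1.05, adjusted p = 0.0402) were called higher in 14w-WD than in 2w-WD. The summed intensity of the fibroblast markers ran from 34043 to 48612 in CHOW, 30968 to 42029 in 2w-WD and 39142 to 52692 in 14w-WD. The part of fibroblast RNA in these differences was not tested. Mrc1, the mannose receptor commonly read with Chil3 and Retnla, differed by -0.14 in 2w-WD and by -0.40 in 14w-WD from CHOW (SE 0.33, adjusted p = 0.897 and 0.559).

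On the arginine and nitric oxide list, 11 of 13 genes were tested and 1 was called, with a median of 0.25. This was the endothelial nitric oxide synthase gene Nos3, higher in 14w-WD than in 2w-WD (0.70, SE 0.22, adjusted p = 0.0494). The 14w-WD mean log2 level of Nos3, 6.46, lay near the CHOW mean of 6.35, while the 2w-WD mean was 5.76. Arg2, the mitochondrial arginase, differed by 0.14 (SE 0.38, adjusted p = 0.817). Of the other classical genes, 15 of 19 were tested and 2 were called, with a median of 0.52. These were the interferon regulatory factor genes Irf1 (1.20, SE 0.30, adjusted p = 0.0238) and Irf5 (0.93, SE 0.29, adjusted p = 0.0481). Mean log2 levels in CHOW, 2w-WD and 14w-WD were 7.76, 7.43 and 8.63 for Irf1 and 6.68, 6.48 and 7.41 for Irf5. The inflammatory cytokine genes did not pass: Tnf differed by 0.52 (SE 0.25, adjusted p = 0.196, no filter) and Il1b by -0.32 (SE 0.27, adjusted p = 0.415).

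All 12 genes of the interleukin-10 and interleukin-6 signalling list were tested and 2 were called, with a median of 0.40. Il1rn, the gene of the interleukin-1 receptor antagonist, was higher in 14w-WD by 1.94 (SE 0.36, adjusted p = 0.0111). It read 101 to 190 on the 2w-WD arrays, below every 14w-WD array (400 to 1083) and every CHOW array (263 to 890). Of the 11925 tested genes, 8.63% had no overlap between 14w-WD and 2w-WD, and 1.12% had none between 2w-WD and CHOW. Il10rb, a chain of the interleukin-10 receptor, was higher in 14w-WD than in 2w-WD by 1.66 (SE 0.41, adjusted p = 0.0224). The CHOW mean log2 level of Il10rb, 7.53, lay between the means of 2w-WD (6.65) and 14w-WD (8.31). Of the close relatives of the markers, 5 of 12 were tested and 0 were called, with a median of 0.13. Chil1, a chitinase-like relative of Chil3 below the filter level, was higher by 1.72 (SE 0.56, adjusted p = 0.0746), and Chia1, an acidic chitinase gene, differed by -0.44 (adjusted p = 0.217).

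**Figure D4:**
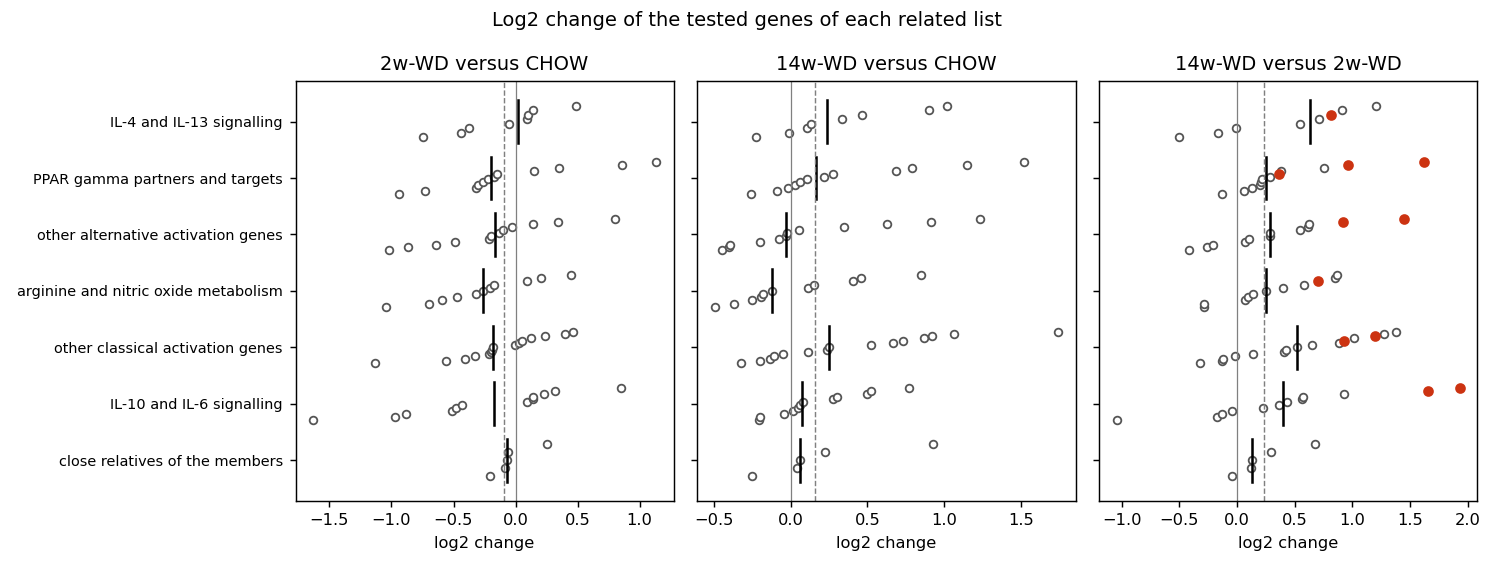
Log2 difference of each tested gene (points) of 7 lists of related genes in the 3 comparisons, with the median of each list (black bar) and of all tested genes (dashed line). Red filled points passed at an adjusted p under 0.05. All 11 such genes lie in the comparison of 14w-WD with 2w-WD and are higher in 14w-WD.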

How the data were processed

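The authors' deposited values are linear intensities, 1 per array (15 arrays) for 45037 probe sets. The labels' protocols name the PicoPure extraction, RiboAMP HS amplification and TURBO labelling kits. Summarisation, background correction and normalization are not given in the sources used here. By the array's GEO annotation, 34945 probe sets had 1 gene, 932 several and 9160 none here, and 34741 matched the GRCm38.p6 gene table.

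Values became log2(intensity + 16), as the design provided for linear values. The filter at the median of all probe sets left 11925 of 18193 genes, and members below it were tested without it. All 15 arrays entered lmFit and eBayes of limma 3.58.1 (R 4.3.3, intensity trend), with two-sided tests and Benjamini-Hochberg adjustment over all genes of the fit at 0.05. The fit was tested on simulated data. Exact permutation tests of 5 against 5 arrays cannot go below a p of 0.00794.

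The members and lists were chosen with earlier results of these data known. Named genes were the members, list genes past the threshold (at most 4 a list) or otherwise the 2 of smallest p, Tnf, Il1b, Mrc1, Stat6, Arg2, Cd68, Adgre1 and Myh6, and the 2 genes of highest Pearson r with each member above the filter. S100a8, S100a9, Ngp, Camp, Ltf, Mpo, Elane, Adipoq, Lep, Plin4, Retn, Pdgfra, Col1a1, Cidec, Il4 and Il13 were singled out after their values were seen. Alternatives changed the pseudocount, filter, normalization, probe set rule, array weights, groups fitted, replicate block and trend, and left out each array. Array brightness and heart muscle level as covariates were added after seeing the data.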

Additional observations from a re-analysis of the deposited data

Results flagged for a closer look

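In 4 of the 30 sets of 5 arrays (10 markers in 3 groups), 1 array lay far from the other 4 on the log2 scale: its gap to the nearest of them was over 0.71 of the whole range. Chance gives this in about 5% of such sets. Arg1 on CHOW replicate 4 stood at 7.38, an intensity of 151, with a gap of 0.805 of the range. Pparg stood at 5.00 on 14w-WD replicate 4, the lowest of its group, with a gap of 0.909. On 2w-WD replicate 1 Pparg stood at 6.66, the highest of its group, with a gap of 0.878. Il10 stood at 6.09 on that same array, the lowest of its group, with a gap of 0.716.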

How the results depend on the processing

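No marker passed in 2w-WD against CHOW under any of 13 other settings or with any of the 15 arrays left out. In 14w-WD against CHOW, 1 marker passed with array weights (Chil3, 1.61, adjusted p = 0.0212, between 0.0212 and 0.924 over all settings). In 14w-WD against 2w-WD, 1 marker, Pparg, passed with array weights (1.68, adjusted p = 0.00518), with a replicate block (1.30, adjusted p = 0.0414) and with 2w-WD replicate 1 or 14w-WD replicate 4 left out, a range of 0 to 1 over the arrays left out. Its adjusted p lay between 0.00518 and 0.931 over all settings. Of the 5 pairs of same-numbered arrays, 4 (2w-WD and CHOW), 2 (14w-WD and CHOW) and 1 (14w-WD and 2w-WD) deviated together at a correlation over 0.1, with ranges of -0.126 to 0.477, -0.138 to 0.307 and -0.166 to 0.296. As this was not so for every pair, the numbers were not taken as pairing, and the replicate block is given only here. With the heart muscle level as a covariate, Chil3 differed from CHOW by 2.37 in 2w-WD and 1.53 in 14w-WD, and Pparg by -1.36 and -0.038. Over all settings Chil3 ranged from 1.34 to 2.37 and from 0.79 to 1.62, and Retnla from 0.48 to 1.51 and from 0.80 to 2.03, in the same comparisons.

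Over all genes, 0 passed in 2w-WD against CHOW under all settings. In 14w-WD against CHOW the count of 1 became 7 with a pseudocount of 64, 17 with no filter, 0 with the stricter filter, with the mean of probe sets or with array brightness as a covariate, 2234 with array weights, 122 with only the compared groups and 20 with the replicate block. It ranged from 0 to 190 with 1 array left out. In 14w-WD against 2w-WD the count of 1338 became 3839 with array weights, 2122 with the replicate block and 0 with array brightness as a covariate, and ranged from 143 to 3561 with 1 array left out. Array brightness and diet group are confounded between 14w-WD and 2w-WD. The causes were not tested.

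Sign changes concerned differences that did not pass. Arg1 in 2w-WD against CHOW was -0.050 and Pparg in 14w-WD against CHOW 0.015 with a pseudocount of 64. With array weights, 14w-WD against CHOW gave 0.32 for Pparg and 0.35 for Clec10a. In 14w-WD against 2w-WD, quantile normalization gave -0.24 for Il4ra and -0.18 for Il10, and median centring gave -0.025 for Nos2. With brightness as a covariate that comparison gave -0.020 for Il4ra, -0.056 for Nos2, -0.19 for Retnla and -0.58 for Clec10a. With 1 array left out, 2w-WD against CHOW ranged from -0.145 to 0.70 for Arg1, -0.33 to 0.0018 for Mgl2, -0.20 to 0.025 for Nos2 and -0.0012 to 0.55 for Il6. In 14w-WD against CHOW it ranged from -0.80 to 0.023 for Arg1, -0.10 to 0.18 for Mgl2, -0.36 to 0.18 for Clec10a, -0.23 to 0.42 for Pparg and -0.17 to 0.074 for Nos2. In 14w-WD against 2w-WD it ranged from -0.018 to 0.96 for Retnla, -0.16 to 0.34 for Il4ra, -0.056 to 0.15 for Nos2 and -0.028 to 0.23 for Il10. Dim markers (Arg1, Mgl2, Nos2, Il6) lie near background, where a change of this assay is hard to measure.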
